A study of Mus musculus with 4 samples.

Results

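Wild-type mouse embryonic fibroblasts kept at 0.1% oxygen were compared with the same kind of cells kept at 21% oxygen, with 1 Affymetrix array in each group. The comparison covers the 4125 genes, of 12393 that the array measured under a single gene symbol, whose probe set reached a signal of 500 or more on the brighter of the 2 wild-type arrays. In hypoxia 126 of them were at least 2-fold higher and 49 at least 2-fold lower, on arrays of different lots. Known targets of the hypoxia-inducible factors (HIF) made up 42 of the rises, and the other 84 rises and the 49 falls are described here mainly by function. The largest rises outside the HIF targets were in Krt19, Tmem45a, Ifi202b, Rgcc, Sap30 and Nampt. The largest falls were in the chemokine Ccl7, the flap endonuclease Fen1, Wdr77, Sephs2 and the ribosome assembly factors Rrs1 and Rcl1.

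The cells were primary fibroblasts (wildtype_normoxia and wildtype_hypoxia) derived from e14.5 embryos (embryonic day) and not modified further. Subconfluent cultures were given medium already equilibrated to the gas and were then held at 37 °C with 5% carbon dioxide for 6 h, the only difference in treatment being the oxygen, before lysis for total RNA. The medium was DMEM with 10% fetal bovine serum. A second pair of arrays in the series (tri_CH1_normoxia and tri_CH1_hypoxia) came from fibroblasts treated in the same way in which the CH1 domain, a protein-binding module, is missing from p300 (both alleles) and from CBP (1 allele); they serve here as a pair that shares no array with the wild-type pair. How many embryos or cultures stand behind an array, and the mouse strain, are not given in the sources used here. With 1 array in each group there was no replicate error and no test, the number of arrays limits the precision, and every difference is given by its size. Rose and fell mean at least 2-fold, after signals under 200 were raised to 200; where the dimmer signal was under 200, the fold is written as at least that value.

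HIF is a pair of proteins, an oxygen-labile alpha subunit and the stable partner Arnt. At normal oxygen, prolyl hydroxylases of the Egln family mark the alpha subunit, and the ubiquitin ligase that contains Vhl has it destroyed; without oxygen it accumulates, enters the nucleus and binds a short core sequence, ACGTG, near its target genes. Its targets are best known for glucose uptake, glycolysis, blood vessel growth, mitophagy and oxygen sensing itself. Severe hypoxia is also known to act outside HIF, on oxygen-dependent dioxygenases, on sterol sensing, on translation and ribosome production, and on the cell cycle.

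The deposited signals are linear and scaled to a target of 500 on each array. The wild-type normoxia array came from a lot of its own, and the other 3 arrays shared another lot. Its scale factor was 3.46, against 6.73 for wild-type hypoxia, and its background after scaling was 139 against 246. The tri-CH1 arrays had factors of 10.3 and 8.70. Lot and oxygen therefore cannot be told apart within the wild-type pair. On each wild-type array 9 of 10 fibroblast markers reached 500, with summed signals of 154400 in normoxia and 146600 in hypoxia. None of 5 endothelial and none of 4 skeletal muscle markers reached 500 on either array. Of 6 epithelial markers, Krt18 alone did, in hypoxia, and of 7 macrophage and blood markers Csf1r and Lyz2 did, on both. Xist, the RNA of the inactive X chromosome, was at 3095.5 and 3523.2 and the Y-linked Eif2s3y at 4.3 and 22.8, so the wild-type arrays did not differ in this respect. The tri-CH1 arrays had the opposite pattern, with Xist at 318.1 and 262.6 and Eif2s3y at 241.8 and 363.3, so the pairs differ in sex as well as in genotype.

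The whole distribution moved little. The median log2 change over the 4125 genes was -0.057, the quartiles were -0.27 and 0.17, and 86.3% of genes stayed within 1.5-fold. Against that, 3.05% of genes rose and 1.19% fell, 4.24% in all. The rises were also larger: 54 genes rose and 6 fell by at least 3-fold, 40 rose and 2 fell by at least 4-fold, and 12 rose and none fell by at least 8-fold. Genes on the HIF list held all but 1 of those 12.

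The dim end of the array held a large share of the falls. Among the 350 genes whose mean signal over the wild-type pair (on the log scale) was at most 500, 6.86% rose and 7.43% fell. These genes counted only because the brighter array reached 500, so this group favours genes that differ between the arrays. Above a mean of 500 the counting rule drops no gene. There, 0.977% fell between 500 and 1000 and 0.394% between 1000 and 2000. Among the 395 genes with a mean above 4000, 10 rose (2.53%) and none fell. The median normoxia signal of the 49 falls was 727, and 36 of them were under 500 in hypoxia. A 2-fold fall from under 1000 must end under 500, and 30 of the falls began under 1000. For comparison, the median hypoxia signal was 2794 for the HIF-list rises and 1257 for the other rises. Above a mean of 500 the share of falls thus dropped with brightness, whose part in the falls was not tested.

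**Figure D1:**
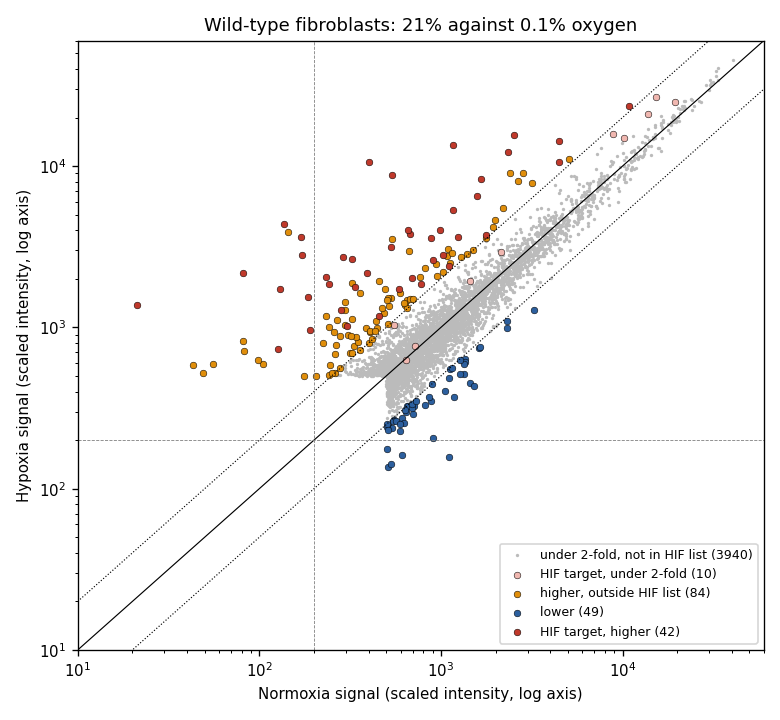
Signal of each counted gene at 21% oxygen (horizontal) and at 0.1% oxygen (vertical) in wild-type fibroblasts, both on log axes; each point is 1 gene and 1 array per group, the dotted lines mark 2-fold and the dashed lines the floor of 200. The 126 rises reach far from the diagonal and span the range of signal, while the 49 falls lie near the 2-fold line and mostly at low signal.

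The HIF targets moved as a group and set the upper end of the range. Of 66 listed genes with a probe set of their own, 52 were bright enough to count. Of these, 42 rose (80.8%, against 3.05% of all genes), none fell, and the median log2 change was 2.03. Counting by the brighter array favours members that changed, as it does for all genes, and it left out 14 dimmer members. The list was also drawn up with earlier results of these data known. Both choices can raise the share and the median. The median was 1.75 with a minimum signal of 250 and 2.11 with a minimum of 1000. The signal of Bnip3, a mitophagy receptor, was 402.5 in normoxia and 10529.6 in hypoxia, a 26.2-fold rise. The neuronal-type glucose transporter Slc2a3 went from 137.3 to 4348.6, at least 21.7-fold. Egln3, an oxygen-sensing prolyl hydroxylase, went from 170.2 to 3620.0, at least 18.1-fold. These 3 genes were dim in normoxia and among the clear signals in hypoxia. The stress gene Ndrg1 went from 535.0 to 8842.8 (16.5-fold), the adenylate kinase Ak4 from 172.2 to 2795.2 (at least 14.0-fold) and the endoplasmic reticulum oxidase Ero1a from 1161.8 to 13502.5 (11.6-fold).

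Behind these leaders the HIF rises covered distinct tasks. In sugar handling, the hexokinase Hk1 rose from 678.2 to 3774.7, 5.57-fold, and the phosphofructokinase Pfkp from 529.1 to 3158.2, 5.97-fold. The glycogen synthase Gys1 rose from 393.2 to 2162.2, 5.50-fold, and the phosphoglucomutase Pgm1, which feeds it, from 590.1 to 1721.2, 2.92-fold. The lipid droplet protein Hilpda rose from 241.4 to 1868.1, 7.74-fold. Genes of storage as well as of breakdown were therefore among the rises. Brakes on growth included Mxi1, a Myc antagonist, from 334.6 to 1788.4 (5.34-fold), and Ddit4, an inhibitor of mTOR complex activity, from 1235.8 to 3613.5 (2.92-fold). Chromatin and matrix modification were represented by the histone demethylase Kdm3a, from 282.6 to 1274.9 (4.51-fold), and the collagen lysyl hydroxylase Plod2, from 984.5 to 3990.8 (4.05-fold). The secreted stanniocalcins Stc1 and Stc2 rose 3.36-fold and at least 3.69-fold.

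Some listed targets did not pass 2-fold. The 10 counted members under that size had log2 changes from -0.03 for Pgm2 to 0.91 for the heme oxygenase Hmox1. The aldolase Aldoa was at 0.81, the transferrin receptor Tfrc at 0.45 and the HIF antagonist Cited2 at 0.41. The mRNA of HIF-1α itself (Hif1a), which is controlled mainly at the protein, was 2062.2 in normoxia and 3022.8 in hypoxia, a log2 change of 0.55. Its partner Arnt was under 500 on both arrays, at 377.0 and 352.9, and the other alpha subunit Epas1 was under 200, at 129.2 and 108.7.

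Promoters were examined because the HIF core can be read directly from sequence. The windows run from 250 bases before to 50 bases after the start of each gene in RefSeq (build GRCm38.p6) and are printed 5′ to 3′ on the strand of the gene. The pairs shown are 2 of the leading HIF targets and 2 of the leading rises outside the list that hold the core in this window. Capitals mark ACGTG, or CACGT, the same core on the other strand; in Bnip3 both overlap in the palindrome CACGTG. Bnip3 lies at chr7:138909457-138909756 (minus strand), Egln3 at chr12:54203825-54204124 (minus), Sap30 at chr8:57487811-57488110 (minus) and Nampt at chr12:32820085-32820384 (plus).
Bnip3: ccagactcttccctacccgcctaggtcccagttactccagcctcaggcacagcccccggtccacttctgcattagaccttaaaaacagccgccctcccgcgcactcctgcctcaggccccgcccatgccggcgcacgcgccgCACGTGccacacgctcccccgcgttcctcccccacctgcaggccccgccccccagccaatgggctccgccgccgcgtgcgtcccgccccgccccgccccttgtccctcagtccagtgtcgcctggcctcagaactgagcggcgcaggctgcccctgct
Egln3: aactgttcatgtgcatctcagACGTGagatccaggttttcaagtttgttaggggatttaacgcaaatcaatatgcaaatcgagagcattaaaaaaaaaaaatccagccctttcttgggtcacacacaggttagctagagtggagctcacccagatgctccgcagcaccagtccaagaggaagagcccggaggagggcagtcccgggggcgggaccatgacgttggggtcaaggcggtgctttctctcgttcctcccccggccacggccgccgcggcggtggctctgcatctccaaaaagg
Sap30: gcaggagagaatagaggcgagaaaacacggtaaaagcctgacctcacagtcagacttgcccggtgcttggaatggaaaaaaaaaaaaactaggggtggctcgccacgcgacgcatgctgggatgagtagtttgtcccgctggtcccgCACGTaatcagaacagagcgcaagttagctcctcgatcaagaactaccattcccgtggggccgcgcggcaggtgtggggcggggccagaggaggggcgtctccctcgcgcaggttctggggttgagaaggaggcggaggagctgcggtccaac
Nampt: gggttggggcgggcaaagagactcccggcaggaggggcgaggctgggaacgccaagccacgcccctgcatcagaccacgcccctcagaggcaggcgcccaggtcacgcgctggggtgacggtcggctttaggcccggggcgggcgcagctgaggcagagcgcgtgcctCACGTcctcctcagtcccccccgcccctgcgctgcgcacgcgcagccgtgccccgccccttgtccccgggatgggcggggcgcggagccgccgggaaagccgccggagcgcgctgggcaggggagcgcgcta

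The marked cores begin at positions -108 and -107 in Bnip3, -229 in Egln3, -103 in Sap30 and -82 in Nampt, counted back from the start site. Over all 32851 RefSeq promoters of this length, 19.6% held ACGTG on either strand, and over the 4354 promoters of counted genes 28.7% did. The share was 46.3% of 54 promoters for the HIF-list rises (36 of 42 genes matched), 32.2% of 87 for the other rises (66 of 84 genes) and 36.0% of 50 for the falls (38 of 49 genes). The HIF-list rises thus held the core more often than counted genes in general, while the rises outside the list stood close to them. The palindrome CACGTG, which contains ACGTG on both strands and is also the E-box read by Myc and related proteins, was in 11% of promoters of counted genes, in 9.26% for the HIF-list rises and in 6.90% for the other rises. It was in 10 of the 50 promoters of the falls, among them those of Fen1, Wdr77, Sephs2, Nop2 and Apex1. The 34 promoters of ribosome assembly genes held it in 23.5%. The CCAAT box was in 35.2% to 38.0% of the promoters of the called sets, against 37.9% of counted genes. TATAAA was in 11.5% of those of the rises outside the list and in 6.00% of those of the falls, against 7.60%. The median GC content was 64.3% for the HIF-list rises, 62.7% for the other rises and 60.2% for the falls, against 61.7%. A match is a run of letters in these windows, not a shown binding site.

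Outside the HIF list, 84 of 4073 counted genes rose (2.06%), with a median log2 change of 1.36 against 2.36 for the HIF-list rises. The list is not complete, and several of the 84, such as the peptide Apln, Mgarp, Ier3 and Jmjd6, have also been described as responsive to HIF, so outside the list does not mean independent of HIF. The functional groups below were drawn up after the values were seen and describe them only.

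The largest of these rises was in an epithelial filament gene. Krt19, a keratin of simple epithelia, was at 144.7 in normoxia and 3880.8 in hypoxia, at least 19.4-fold; it was at 423.2 and 2675.5 in the tri-CH1 pair, so both hypoxia arrays were high. Other keratins did not move with it: Krt18 was at 424.3 and 588.3 (log2 change 0.47) and Krt8 was under 500 on both arrays, at 398.3 and 332.0. Epithelial defining markers were near 0, with Epcam at 7.6 and 13.7 and the cadherin Cdh1 at 10.1 and 2.3. The summed signal of the 6 epithelial markers was 1132 in normoxia and 1204 in hypoxia. In such bulk RNA, a change in the number of cells of a type and a change in RNA per cell cannot be told apart. In the same functional group, the membrane-to-actin linker Ezr rose from 278.8 to 884.3, 3.17-fold, but its brightest probe set without a cross-matching suffix gave a log2 change of -0.04. The galectin Lgals3 rose from 1987.9 to 4611.3, 2.32-fold, and the crosslinking enzyme Tgm2 from 342.8 to 873.9, 2.55-fold. The only further probe set of Tgm2 at 500 or more gave 0.57 on the log2 scale, under 2-fold. Tgm2 went from 463.0 to 152.7 in the tri-CH1 pair.

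Enzymes of carbon and NAD metabolism formed a group of 8 genes with a median log2 change of 1.73. Nampt, the rate-limiting enzyme of NAD salvage, was at 358.9 and 1638.5 (4.57-fold) and at 492.0 and 1984.6 in the tri-CH1 pair. Pgp, which clears the glycolytic side product phosphoglycolate, was at 670.3 and 2971.6 (4.43-fold), and its second probe set gave 1.87 on the log2 scale. Me2, the mitochondrial malic enzyme, was at 268.2 and 1108.2 (4.13-fold). All 8 had the same sign in the tri-CH1 pair, and 5 passed 2-fold there at a countable signal. Of all 84 rises outside the HIF list, 75 and 41 did so. The glyoxylate reductase Grhpr rose 2.99-fold, from 512.1 to 1530.5, and Bpgm, which makes and breaks down bisphosphoglycerate, 2.86-fold, from 528.3 to 1511.7. The glycogen phosphorylase Pygl rose from 49.0 to 517.7, at least 2.59-fold, beside the rise of glycogen synthase. Ugdh, which makes UDP-glucuronate for matrix polysaccharides, rose from an already high 3180.7 to 7901.3, 2.48-fold.

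The 7 risen genes of metal binding and membrane transport had signals of very different strength. The metallothioneins, small proteins that bind zinc and copper, were bright in every sample. Mt1 was at 2820.6 and 9124.1 (3.23-fold) and Mt2 at 2653.9 and 8109.5 (3.06-fold). In the tri-CH1 pair Mt1 was at 4150.3 and 14703.8 and Mt2 at 5166.4 and 14195.0, so the hypoxia array was the higher of each pair. Probe sets of these close relatives can pick up both transcripts. The other rises were dimmer. The magnesium transporter Slc41a2 rose from 240.7 to 1012.3, 4.21-fold, and the chloride and proton exchanger Clcn3 from 82.5 to 713.9, at least 3.57-fold. The zinc transporter Slc30a3 rose from 81.4 to 818.4, at least 4.09-fold, but was at 540.9 and 576.4 in the tri-CH1 pair, so only the wild-type normoxia array was low.

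Regulators of growth and survival included genes that act at the G1 to S step. Rgcc, a regulator of cyclin-dependent kinases, rose from 234.3 to 1170.3, 4.99-fold, and the early response gene Ier3 from 2413.2 to 9047.3, 3.75-fold. The inhibitor p27 (Cdkn1b) rose from 438.2 to 1091.7, 2.49-fold. No other of the 12 counted G1 cyclins and inhibitors passed 2-fold, against 4.24% of all genes. The nearest of the others were the cyclin Ccnd2, from 7593.4 to 12864.9 (log2 change 0.76), and the inhibitor Cdkn1a, from 4503.9 to 7122.2 (0.66). The scaffold Rassf1 rose 2.61-fold, from 943.9 to 2461.7.

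Among 11 genes of transcription, chromatin and RNA, 10 had the same sign in the tri-CH1 pair. So did 75 of all 84 rises outside the HIF list. Sap30, a subunit of the Sin3 histone deacetylase complex, was at 297.6 and 1433.7, 4.82-fold, and at 341.4 and 1298.2 in the tri-CH1 pair. Jmjd6, a dioxygenase that itself uses oxygen, was at 769.0 and 2048.1, 2.66-fold. Its only further probe set at 500 or more gave 0.84 on the log2 scale, under 2-fold. Among the 7 counted members of a list of other Jumonji demethylases and methyltransferases, no other gene passed 2-fold, against 4.24% of all genes. The coactivator Pnrc1 rose 2.81-fold, from 471.3 to 1324.7, the ADP-ribosyltransferase Tiparp 2.74-fold, from 596.1 to 1634.4, and the small Maf protein Maff 2.26-fold, from 625.6 to 1411.5. Maff and Ier3 were the only 2 of 26 counted immediate early genes past 2-fold, against 4.24% of all genes, and the list median was 0.12. Of the 26, 17 were above 0 and 9 below (34.6%, against 56.9% of all genes). Those below included Egr1, from 1274.3 to 926.0 (-0.46), and Myc, from 1464.6 to 1050.5 (-0.48).

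Genes of protein turnover included a direct part of the HIF circuit. Vhl, which recognises hydroxylated HIF alpha subunits, was at 319.3 and 887.4, 2.78-fold, and at 452.0 and 859.5 in the tri-CH1 pair. Rnf19a, a ubiquitin ligase, rose from 502.6 to 1486.8, 2.96-fold, and Fem1b, a substrate receptor of a cullin ligase, from 1076.8 to 2769.5, 2.57-fold. A further probe set gave 1.69 for Rnf19a and 1.04 for Fem1b. The rhomboid-domain gene Rhbdd3 and the ligase Arih2 stood apart from these. Rhbdd3 rose from 224.3 to 803.8, 3.58-fold, but was at 692.5 and 795.6 in the tri-CH1 pair. Arih2 rose from 487.4 to 1228.7, 2.52-fold, but was at 1231.7 and 1220.1 there. For both, 3 arrays were alike and the wild-type normoxia array was the low one.

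The 12 risen genes of receptors and signalling had a median log2 change of 1.14. Plekha2, an adaptor that binds phosphoinositides, was at 457.5 and 1945.8, 4.25-fold, and a second probe set gave 2.07 on the log2 scale. The vascular peptide Apln was at 489.4 and 1731.9, 3.54-fold. Map2k1, the kinase that activates ERK, was bright at 2196.4 and 5487.3, 2.50-fold. These 3 had changes of 1.70, 1.02 and 1.05 in the tri-CH1 pair, each past 2-fold. The adhesion receptor Pvr rose 2.24-fold on its brightest probe set, from 1117.9 to 2502.5, but its further probe sets at 500 or more ranged from 0.07 to 0.84, under 2-fold.

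Lipid genes held part of the cholesterol pathway. Idi1, which makes dimethylallyl diphosphate, was at 1028.1 and 2207.6 (2.15-fold), the squalene epoxidase Sqle, which uses oxygen, at 1768.7 and 3606.5 (2.04-fold) and the lanosterol synthase Lss at 653.2 and 1310.1 (2.01-fold). Of 22 counted genes of sterol and fatty acid synthesis, those 3 rose (13.6%, against 3.05% of all genes), none fell, and 17 were above 0, with a list median of 0.37 against -0.057. Msmo1, an oxygen-using demethylation enzyme, was next at 0.86, from 2570.6 to 4668.1, and the synthase Hmgcs1 was at 0.64, from 3110.3 to 4860.6. Both sides of the list were mixed. On the fatty acid side, the fatty acid synthase Fasn was at -0.77, from 1688.8 to 992.7, Acly at 0.14 and Scd2 at 0.72. On the sterol side, Ebp was at -0.51 and Fdps at 0.01. In the tri-CH1 pair 21 of the 22 were above 0, with a median of 0.52, and Fasn was at 0.43. Outside that list, the fatty acid binding protein Fabp5 rose from 5047.4 to 10997.2, 2.18-fold, and the glucosylceramide synthase Ugcg from 1493.7 to 3005.6, 2.01-fold.

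A few immune genes rose while most counted interferon genes did not. Ifi202b, a member of the interferon-inducible p200 family, went from 324.2 to 1884.9, 5.81-fold, in wild type and was at 18.4 and 10.1 in the tri-CH1 pair, under 200 on both arrays. The class I molecule H2-K1 went from 1152.7 to 2905.3, 2.52-fold, and from 2061.5 to 5185.2 in the tri-CH1 pair, the same fold; its further probe sets gave 1.08 and 0.22 on the log2 scale. The class II chain H2-Ab1 went from 43.1 to 583.6, at least 2.92-fold. Probe sets of these gene families can pick up related transcripts. Of 7 counted interferon genes, H2-K1 and Ifi202b rose, against 3.05% of all genes, and the list median was 0.12; Ifitm3 was at -0.66, from 9471.1 to 6009.3.

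Several large rises belong to genes with little settled function. The membrane protein Tmem45a was at 540.4 and 3516.3, 6.51-fold, and at 1383.1 and 4714.2 in the tri-CH1 pair. Fam117b was at 296.0 and 1284.7, 4.34-fold, and Dipk2a at 298.2 and 1031.5, 3.46-fold. Mgarp, a protein of mitochondrial distribution, went from 98.0 to 628.4, at least 3.14-fold, and Tbl2 from 263.1 to 779.8, 2.96-fold. Each of these passed 2-fold in the tri-CH1 pair as well, as did 41 of all 84 rises outside the HIF list. Dhrs7, a short-chain dehydrogenase, was at 256.4 and 941.7, 3.67-fold, and the palmitoyltransferase Zdhhc12 at 322.1 and 1130.7, 3.51-fold.

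**Figure D2:**
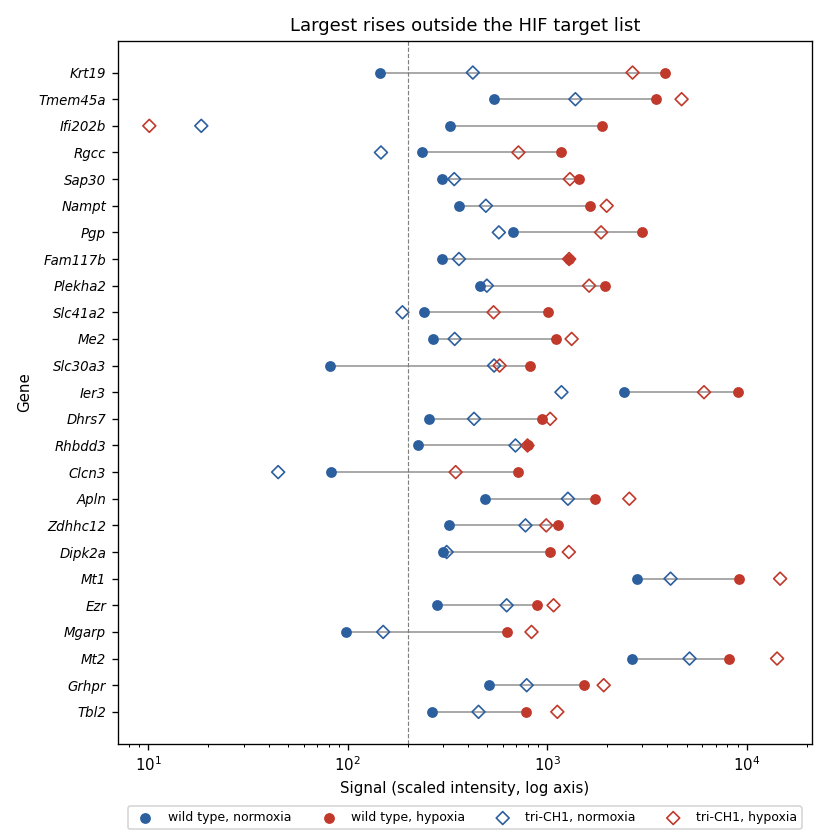
Signals (log axis) of the 25 genes outside the HIF list with the largest rises, with filled symbols for wild type, open diamonds for tri-CH1, blue for normoxia and red for hypoxia; each symbol is 1 array. In most genes both hypoxia symbols lie right of both normoxia symbols, but for Slc30a3 and Rhbdd3 the wild-type normoxia array alone is low, and for Ifi202b both tri-CH1 arrays are low.

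Further probe sets of the same genes give the only internal spread, a log2 SD of 0.24 over 1339 genes, which covers differences between probe sets and not between cultures. For the HIF-list rises, 33 further probe sets of 24 genes reached 500, and all 33 showed at least a 2-fold rise, with a median of 2.29. For the other rises there were 41 such probe sets of 27 genes; all 41 had the same sign, 24 passed 2-fold, and the median was 1.08. For the falls there were 16 of 13 genes, again all of the same sign, with 7 past 2-fold and a median of -0.97. The limit of 500 on the brighter array favours probe sets that changed, so the shared sign is partly set by that choice. Some dimmer sets left out had the other sign, such as Ezr among the rises (-0.04) and Kctd20 among the falls (0.07). The size outside the HIF list was often under the threshold.

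The falls were smaller, with a median log2 change of -1.15. The class of ribosome assembly and ribosomal proteins held 8 of the 49, and that of other RNA processing 10. Only called genes were put in classes, after their values were seen, so these counts have no share of all genes beside them. Of 40 counted ribosome assembly genes 6 fell, against 1.19% of all genes, none rose, 34 were below 0, against 56.9% of all genes, and the median was -0.37. Rrs1, needed to assemble the large subunit, was at 1182.5 in normoxia and 369.5 in hypoxia, 3.20-fold lower. Rcl1, which acts in early pre-rRNA cleavage, was at 608.4 and 162.8, at least 3.04-fold lower. Nop2, an rRNA methyltransferase, was at 813.3 and 328.5 (2.48-fold lower) and Wdr75, a small-subunit factor, at 1101.8 and 482.4 (2.28-fold lower). The core proteins of box C/D particles, which guide rRNA methylation, fell as a pair. Nop58 was at 566.9 and 261.3, 2.17-fold lower, and Nop56 at 1356.0 and 641.1, 2.12-fold lower; a second probe set of Nop56 gave -0.66. Their partner Fbl was at -0.20, from 1701.3 to 1478.7, and the abundant nucleolar proteins Npm1 and Ncl were above 0, at 0.23 and 0.15. In the tri-CH1 pair 34 of the 40 were below 0 too, with a median of -0.26, and Nop58 was past 2-fold there, at -1.10.

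Cytosolic ribosomal proteins did not share that change in the wild-type pair. Of 44 counted cytosolic ribosomal protein genes 1 fell (2.27%, against 1.19% of all genes). The median was 0.05 and 15 were below 0 (34.1%, against 56.9% of all genes). The 1 that fell was Rps27, at 1056.7 and 401.7, 2.63-fold lower, which was at 767.4 and 838.1 in the tri-CH1 pair. In that pair 35 of the 44 cytosolic genes were below 0, with a median of -0.13, against 53% of all genes below 0. The 62 counted mitochondrial ribosomal proteins had none past 2-fold, against 4.24% of all genes. Of them 50 were below 0 (80.6%, against 56.9% of all genes), with a median of -0.24. Their ends were Mrpl45 at 0.79 and Mrps12 at -0.78.

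Other RNA processing genes supplied 10 of the falls. Wdr77, a partner of the arginine methyltransferase that prepares spliceosomal proteins, was at 1520.5 and 430.7, 3.53-fold lower, and a further probe set fell by at least 1.51 on the log2 scale. Exosc1 and Exosc4, subunits of the RNA exosome, were at 699.3 and 288.8 (2.42-fold lower) and at 627.8 and 255.7 (2.46-fold lower). They parted in the tri-CH1 pair, where Exosc1 was at -1.07 and Exosc4 at 0.50. The brightest further probe set of Exosc4, under 500 on both wild-type arrays, gave -0.39. Neat1, the noncoding RNA that builds paraspeckles, was at 527.9 and 143.1, at least 2.64-fold lower, but at 1414.4 and 1463.8 in the tri-CH1 pair. The Lsm ring protein Lsm7 was at 505.7 and 176.5, at least 2.53-fold lower. Pqbp1, a splicing-linked protein, was at 1351.0 and 607.1, 2.23-fold lower, and at 1113.2 and 1179.8 in the tri-CH1 pair. Its further probe set gave -0.46 in wild type. Against these, the 43 counted splicing factors and kinases had 1 fall (2.33%, against 1.19% of all genes) and a median of -0.11.

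DNA and nucleotide genes fell in a small group of 5. All 5 moved the same way in the tri-CH1 pair, as did 42 of all 49 falls. Fen1, which trims flaps on the lagging strand, was at 905.7 and 205.2, 4.41-fold lower, and at 1368.4 and 205.9 in the tri-CH1 pair. A second probe set of Fen1 was at 628.2 and 427.8, a log2 change of -0.55, so the size rests on the brighter set, whose name marks probes that can match other sequences. Ctps, which makes CTP, was bright at 3270.4 and 1289.1, 2.54-fold lower, and Ampd2, the AMP deaminase, was at 2298.8 and 995.9, 2.31-fold lower, with -1.39 on a second probe set. Apex1, the main abasic-site endonuclease, was at 2324.6 and 1097.7, 2.12-fold lower, with -1.01 on each of its further probe sets. The dUTPase Dut was at 513.1 and 249.2, 2.06-fold lower. Just short of the threshold stood Umps, which makes UMP, at 559.6 and 281.8, and the ribonucleotide reductase subunit Rrm2, at 4035.8 and 2037.4, a log2 change of -0.99. Of 18 counted replication genes 2 fell (11.1%, against 1.19% of all genes), none rose and 17 were below 0 (against 56.9% of all genes), with a median of -0.44; the licensing subunits Mcm2 to Mcm7 lay between -0.87 and -0.19. The tri-CH1 pair had 17 of the 18 below 0, with a median of -0.56. The 21 counted mitosis genes had none past 2-fold, against 4.24% of all genes. Of the 21, 18 were below 0 (85.7%, against 56.9% of all genes), with a median of -0.29. Ube2c was lowest at -0.65 and Top2a highest at 0.25. In the tri-CH1 pair 16 of the 21 were below 0, with a median of -0.22.

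Chemokines held the largest fall. Ccl7, which attracts monocytes, was at 1114.7 and 157.6, at least 5.57-fold lower, and its neighbour in function Ccl2 at 514.3 and 135.4, at least 2.57-fold lower. In the tri-CH1 pair Ccl7 was at 529.7 and 174.7 and Ccl2 at 720.3 and 316.4, so both were lower in hypoxia on both pairs. They were the only members past 2-fold among 7 counted inflammatory genes, against 1.19% of all genes that fell; the list median was -0.11. The prostaglandin synthase Ptgs2, of the same list, was at 5193.8 and 8655.1, a log2 change of 0.74. The pattern-recognition protein Ptx3 fell from 502.8 to 250.2, 2.01-fold, and was at 2980.9 and 2578.9 in the tri-CH1 pair.

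Falls at the cell surface and in regulators were mostly moderate. Pdgfrb, the receptor for platelet-derived growth factor, was at 1336.9 and 517.5, 2.58-fold lower. No other of the 13 counted growth factor receptors passed 2-fold, against 4.24% of all genes. The hyaluronidase Hyal2 was at 593.4 and 229.0 (2.59-fold lower), the raft protein Flot1 at 882.8 and 347.4 (2.54-fold lower) and Srgap2 at 593.4 and 251.3 (2.36-fold lower). None of the 10 falls among receptors, adhesion and membranes passed 2-fold in the tri-CH1 pair, and 8 had the same sign. Of all 49 falls, 9 passed 2-fold there and 42 had the same sign. Sephs2, which makes the selenium donor for selenoproteins, was at 1454.7 and 449.1, 3.24-fold lower, with -1.11 and -0.59 on further probe sets. Gclm, the modifier subunit of glutathione synthesis, was at 539.3 and 236.3, 2.28-fold lower. Of the 17 counted Nrf2 targets no other passed 2-fold, against 4.24% of all genes. The import chaperone Timm10 was at 1344.8 and 588.9 (2.28-fold lower), the heat shock protein Hsph1 at 1127.5 and 555.5 (2.03-fold lower) and the ubiquitin ligase Rnf26 at 1269.7 and 511.6 (2.48-fold lower). In transcription, the imprinted zinc finger gene Peg3 was at 863.3 and 370.5, 2.33-fold lower, Id1, an inhibitor of helix-loop-helix factors, at 1612.6 and 743.8, 2.17-fold lower, and the remodeller Chd4 at 551.4 and 266.2, 2.07-fold lower.

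**Figure D3:**
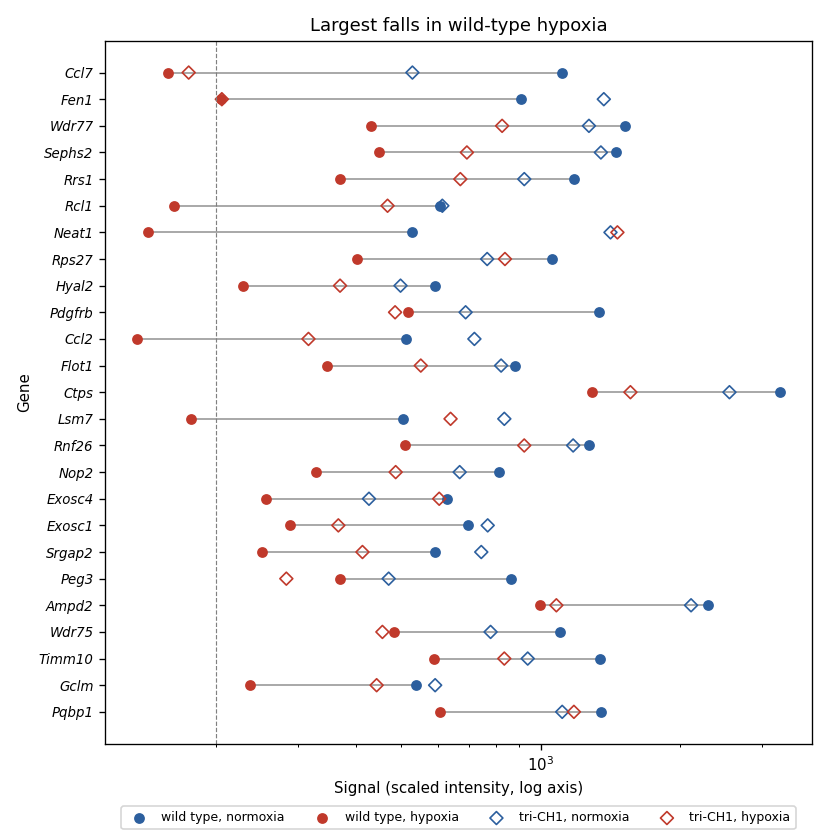
Signals (log axis) of the 25 genes with the largest falls, drawn as for the rises (filled for wild type, open diamonds for tri-CH1, blue for normoxia, red for hypoxia, 1 array per symbol). The wild-type hypoxia symbol lies left of the wild-type normoxia symbol throughout, while the tri-CH1 symbols lie close together for many genes and sit at 1414.4 and 1463.8 for Neat1.

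Beyond the genes past 2-fold, lists of known members describe pathways, though they were drawn up with earlier results of these data known. With 4.24% of all genes past 2-fold, short lists can hold no such gene. Of 33 lists, 14 had no member past 2-fold. The respiratory chain and ATP synthase were among them: 72 counted subunits had a median of -0.12, with Ndufv3 highest at 0.50 and Atp5g1 lowest at -0.66. The 16 TCA cycle enzymes had a median of -0.18, between Fh1 at -0.55 and Pdha1 at 0.28. While glycolytic HIF targets rose, no counted respiratory chain, ATP synthase or TCA cycle gene passed 2-fold, against 4.24% of all genes. The mitochondrial malic enzyme Me2, outside these lists, rose 4.13-fold. The 39 proteasome genes had a median of -0.15, from Psmg1 at -0.78 to Psmd9 at 0.44, and the 16 tRNA synthetases one of -0.07, from Wars at -0.62 to Sars at 0.24.

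Stress pathways outside HIF had few members past 2-fold, as did all counted genes (4.24%). A count of 0 in lists this short therefore does not set them apart. None of 32 counted genes of the integrated stress response passed 2-fold, with the phosphatase adaptor Ppp1r15a highest at 0.76 and the amino acid transporter Slc7a5 lowest at -0.77. None of 13 p53 targets did, between Aen at -0.82 and Cdkn1a at 0.66. The 26 chaperonin and heat shock genes had a median of -0.11, with Hsph1 down and the small heat shock protein Cryab up, from 1090.9 to 3045.5, 2.79-fold; Cryab was at 619.2 and 735.9 in the tri-CH1 pair. Of 36 translation initiation factors only Eif1b rose, from 672.6 to 1490.6, 2.22-fold. Autophagy and lysosome genes had a median of 0.04 over 22 members, from Bcl2l13 at -0.40 to Tollip at 0.38.

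Fibroblast structure was also near the middle of the distribution. The 18 collagen chains had a median of -0.10, from Col4a2 at -0.45 to Col16a1 at 0.36, and the 33 actin cytoskeleton genes one of -0.05, from Actg2 at -0.33 to Tpm2 at 0.48. The 34 matrix proteins and proteases had 1 fall, Hyal2, and a median of -0.12. Growth factors and their feedback genes ranged from Igfbp2 at -0.56 to Smad7 at 0.85 over 20 members. Iron and heme genes ranged from Iscu at -0.73 to Alas1 at 0.43 over 10. All 4 counted clock genes were above 0 on their brightest probe sets (median 0.56, but -0.11 with the mean over probe sets), with Arntl highest at 0.85, from 581.4 to 1049.9, and Csnk1e lowest at 0.13. Mitochondrial import and dynamics had 1 fall, Timm10, among 22 and a median of -0.09.

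**Figure D4:**
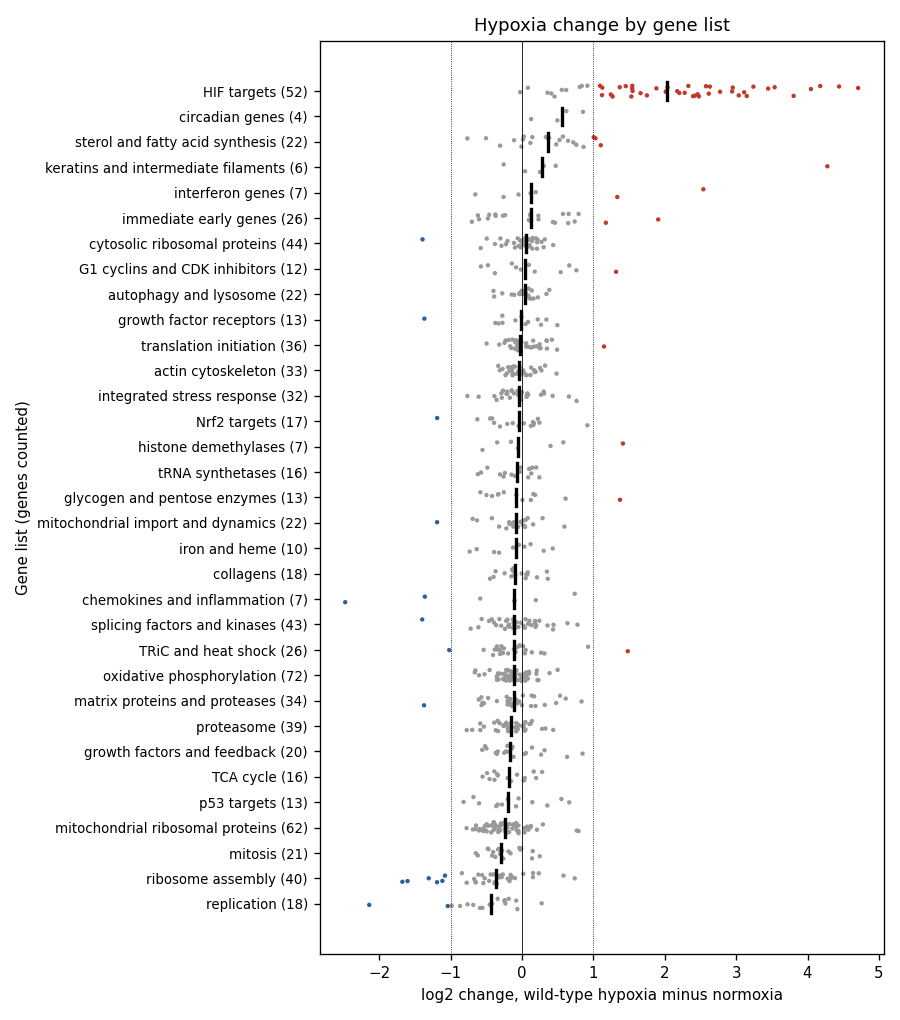
Log2 change from normoxia to hypoxia in wild type for the counted members of 33 gene lists (1 point per gene, 1 array per group), with a black bar at each list median and dotted lines at 2-fold. The HIF targets lie apart at a median of 2.03, sterol and fatty acid synthesis is at 0.37, and replication and ribosome assembly lie lowest among the larger lists at -0.44 and -0.37.

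The tri-CH1 pair was a second hypoxia comparison with no array in common. There, 139 of 4358 genes rose (3.19%) and 43 fell (0.987%). Of the 42 HIF-list rises in wild type, 38 (90.5%) also rose there at a countable signal, and 41 had the same sign. The 4 others were the placental growth factor Pgf, from 21.1 to 1367.6 in wild type but from 7.2 to 39.3 in tri-CH1, and Angptl4 (tri-CH1 change 0.01), Insig2 (0.62) and Ldha (0.94). Of the other 84 rises, 41 (48.8%) did, which is 42.3% of the 97 rises outside the list in tri-CH1; 75 had the same sign, 6 the opposite sign and 3 no change after the floor. Of the 49 falls, 9 (18.4%) did, which is 20.9% of the 43 falls in tri-CH1; the sign was shared by 42 and opposite in 7. Those 9 were Ccl7, Fen1, Ccl2, Exosc1, Nop58, Pcbp4, Chd4, Prmt7 and Hsph1. Over all 4125 genes, 53% were below 0 in the tri-CH1 pair. The tri-CH1 medians were 2.04 for the HIF-list rises, 1.04 for the other rises and -0.46 for the falls. A gene chosen for a large change in wild type has that change inflated by the choice, and the pairs differ in genotype and in sex, so that these cannot be told apart in a smaller tri-CH1 value.

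**Figure D5:**
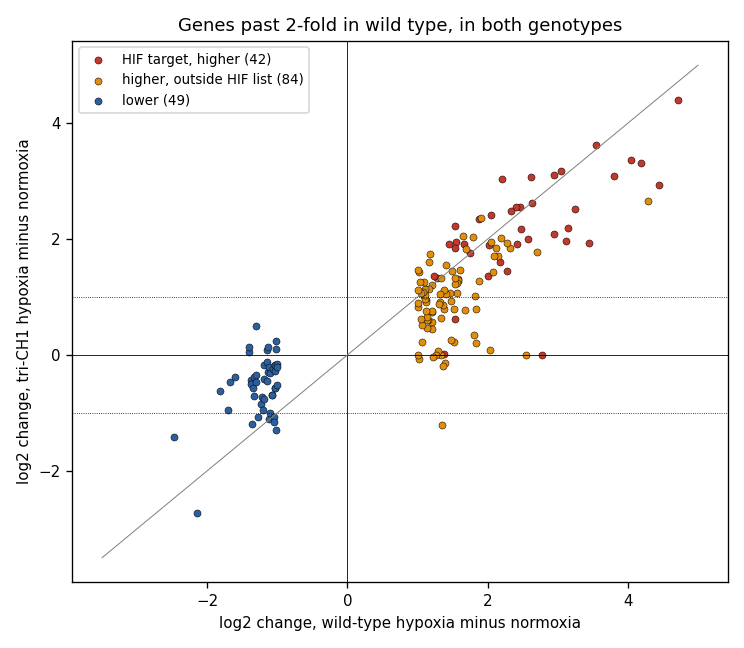
Log2 change in the tri-CH1 pair (vertical) against log2 change in the wild-type pair (horizontal) for the 175 genes past 2-fold in wild type; each point is a gene, the grey line marks equal change and the dotted lines 2-fold in tri-CH1. HIF-list rises lie near the line (median 2.36 and 2.04), while the falls lie mostly above it, with a tri-CH1 median of -0.46 against -1.15.

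The lot of the wild-type normoxia array is shared by every change above. Its signal lay below all 3 other arrays for 17 of the 42 HIF-list rises and for 47 of the 84 other rises, and above all 3 others for 31 of the 49 falls. These genes were chosen by how this array differed from wild-type hypoxia, so the choice itself favours such counts. The share over all counted genes was not taken, so the counts do not show a part of the lot. With the tri-CH1 normoxia array as the comparator, which shares the lot of the wild-type hypoxia array but brings in the differences of genotype and sex, 6.16% of 4400 genes were higher and 4.93% lower. Under it, 40 of the 42 HIF-list rises, 55 of the 84 other rises and 27 of the 49 falls were still past 2-fold and bright enough to count. Of 203 genes checked (the called genes and the ends of lists with none past 2-fold), 71 stayed within 0.24 of their log2 change. Another 127 moved further and 5 reversed. Genes that stayed past 2-fold, not always at the same size, include Krt19 (3.20), Rgcc (2.55), Pgp (2.38), Sap30 (2.07), Nampt (1.74), Me2 (1.69) and Mt1 (1.14) among the rises. Among the falls they include Fen1 (-2.74), Ccl7 (-1.41), Rrs1 (-1.32), Rcl1 (-1.62), Wdr77 (-1.56), Sephs2 (-1.59), Nop58 (-1.77) and Apex1 (-1.02). Rises that were under 2-fold there include Slc30a3 (0.60), Rhbdd3 (0.22), Zdhhc12 (0.54), Ezr (0.50), Apln (0.45), Mt2 (0.65) and Grhpr (0.96). Pdgfrb (-0.41), Exosc4 (-0.74) and Rps27 (-0.93) were under 2-fold among the falls. The part of the lot in the changes was not tested.

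The thresholds cut through a continuous range. Just inside 2-fold stood Lss among the rises (2.006-fold) and Ehd4 among the falls (2.002-fold), and just outside it Nxph3 (1.996-fold) and Umps (1.986-fold). At the signal limit, Tef was just inside at 500.0 in hypoxia and Pltp just outside at 499.9 in normoxia. At 1.5-fold, 6.91% of genes were higher and 6.79% lower, so the excess of rises over falls is a feature of the larger changes.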

How the data were processed

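RNA from primary mouse embryonic fibroblasts was hybridised to 4 Affymetrix arrays, and the wild-type pair was compared. Per the labels, the authors computed the deposited signal intensity with Affymetrix's statistical algorithm and scaled each array to a target of 500; the values are linear. No software version is given in the sources used here. Platform annotation gave 1 symbol to 20380 of 22690 probe sets, several to 691 and none to 1555; 64 were controls. Each gene took its probe set with the highest mean over the 4 arrays. Signals under 200 were raised to 200, and log2 differences were taken. Named by rule were the 25 largest rises outside the HIF list, the 25 largest falls, the 6 largest HIF-list rises, list members past 2-fold and the ends of lists with none. Other genes were named after their values were seen. Members and lists were chosen with earlier results of these data known. Alternatives were other floors, minimum signals, folds, normalizations and probe set choices. The rule was tested on simulated data. Python 3.11.15, numpy 2.4.6, pandas 2.3.3, matplotlib 3.10.9 and limma 3.58.1 in R 4.3.3 were used.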

Additional observations from a re-analysis of the deposited data

Results flagged for a closer look

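Among the 175 genes past 2-fold in wild type, 13 had the opposite sign in the tri-CH1 pair; with 1 array per group the difference was not tested. The rises were Tgm2 (tri-CH1 log2 change -1.21), Fez1 (-0.19), Faap24 (-0.14), Zfp518b (-0.07), Il17re (-0.04) and Arih2 (-0.01). The falls were Exosc4 (0.50), Grina (0.24), Rps27 (0.13), Atxn2 (0.13), Vps36 (0.10), Pqbp1 (0.08) and Neat1 (0.05). Apart from Tgm2 and Exosc4, these tri-CH1 values lay within 1.5-fold.

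Probe sets with several or no symbols stood outside the comparison: 623 were bright enough to count, 12 rose and 6 fell (2.89% past 2-fold). The 3 probe sets shared by the mitophagy receptor Bnip3l and its pseudogene rose by 2.18, 2.26 and 2.30 on the log2 scale, the first from 509.1 to 2299.4, and rose in the tri-CH1 pair too. Sets shared by p200 interferon-inducible genes rose as well. The set of Ifi211 and Ifi205 went from 417.9 to 2349.9 (2.49), and that of Mndal, Ifi211, Ifi205 and Ifi204 from 108.1 to 750.1 (at least 1.91). The class I set of H2-T23 and its pseudogene went from 223.8 to 641.6 (1.52).

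The adult beta-globin set went from 693.3 to 46.8 and was at 82.2 and 43.6 in the tri-CH1 pair. Its log2 change was -1.79 after the floor. The alpha-globin Hba-a1 was at 74.1 and 108.8 and the erythroid enzyme Alas2 at 10.9 and 12.4, under 200 on both arrays and so not informative on a fall; a probe set of the embryonic Hbb-bh1 was at 81.1 and 33.2, also under 200.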

How the results depend on the processing

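No paired analysis was possible because each group has 1 array and the labels carry no replicate numbers; for the same reason no replicate could be left out. The 126 rises, 49 falls and 84 rises outside the HIF list were the same numbers with a floor of 100 or none. A floor of 400 left 106 rises and 24 falls, quantile normalization 125 and 39, cyclic loess 130 and 41, and scaling to equal medians 116 and 72, where the median of all genes was -0.136 and rises made up 61.7% of the calls in place of 72.0%. The shares of rises were 81.5%, 76.2% and 76.0% under the first 3. At 1.5-fold there were 285 rises (239 outside the HIF list) and 280 falls, and at 3-fold 54 (23) and 6. A minimum of 1000 gave 50 rises outside the list and 19 falls. Over every probe set there were 195 rises and 81 falls. Against tri-CH1 normoxia there were 271 rises (229 outside the list) and 217 falls.

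Of the called genes, 41 of 42 HIF-list rises, 65 of 84 other rises and 24 of 49 falls stayed past 2-fold with a floor of 400. The mean over all probe sets left 40, 64 and 33. Signs reversed for Ezr (-0.04, plain probe sets), Zfp518b (-0.04, mean over probe sets) and, against tri-CH1 normoxia, for Arih2 (-0.0035), Il17re (-0.05), Zfp518b (-0.05), Lgals3 (-0.56) and Jup (0.06); the cause was not tested.

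The HIF-list median was 1.72 with a floor of 400 and 1.75 with a minimum of 250. Against tri-CH1 normoxia the medians were -0.72 for replication, -0.71 for mitosis, 0.35 for G1 genes, 0.04 for p53 targets, 0.41 for immediate early genes, -0.80 for chemokines, -0.41 for interferon genes, 0.42 for actin cytoskeleton, -0.26 for keratins, 0.23 for growth factor receptors, 0.34 for growth factors and 0.26 for histone demethylases. That comparison counts other genes (4400 in place of 4125); over the members counted in the wild-type pair it gave 0.44 for keratins, -0.53 for mitosis and 0.20 for p53 targets. A minimum of 1000 gave -0.28 for growth factor receptors, 0.26 for histone demethylases and -0.51 for iron and heme, and a minimum of 250 gave -0.36 for the last. Plain probe sets gave -0.35 for interferon genes and 0.13 for clock genes, and the mean over probe sets -0.11 for clock genes. Genes near the floor are limited by signal over background: 18 rises and 5 falls had a dimmer signal under 200.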

Other observations

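Further rises outside the HIF list, between 1.01 and 1.57 on the log2 scale, fell into small functional sets. In vesicle traffic and membrane scaffolds, the Golgi scaffold Gopc went from 515.0 to 1364.1, 2.65-fold, with 1.39 on a second probe set and 1.55 in the tri-CH1 pair. Gphn, the gephyrin scaffold, went from 177.1 to 502.4, at least 2.51-fold, and Apba3 and Rusc2 rose 2.20-fold and 2.01-fold. In lipids, the acyltransferase Mboat2 went from 307.1 to 890.9, 2.90-fold, and the flippase subunit Atp11b rose 2.31-fold. In signalling, the PP2A methylesterase Ppme1 went from 815.4 to 2333.1, 2.86-fold. The G protein Gna13, the adaptor Bcar1, the receptor chains Il4ra and Il17re, Kremen1 and Frmd6 rose between 2.01-fold and 2.33-fold. In transcription and RNA, the deadenylase Cnot7 went from 648.1 to 1488.5, 2.30-fold, with 1.19 and 1.09 on further probe sets. Gtf2e2, a subunit of a general transcription factor, went from 1287.5 to 2742.3, 2.13-fold. Jarid2, Zfp532 and Zfp518b rose 2.44-fold, 2.20-fold and 2.03-fold. The turnover genes Kctd9, Rnft1 and Rnf126, the transport genes Tmem63a and Slc16a11, the cochaperone Dnajc5 and the adhesion genes Fez1 and Lims2 lay between 2.06-fold and 2.57-fold. Medag, Faap24, Tmcc3 and the unnamed genes 2610528A11Rik, 1110051M20Rik and 2700097O09Rik rose as well.

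The remaining falls lay between -1.15 and -1.01 on the log2 scale. They included the RNA-binding proteins Atxn2 and Pdcd4, and Naf1 of the ribosome assembly class. Further probe sets of Atxn2, under 500 on both arrays, gave between -0.16 and 0.0. Also among these falls were the ubiquitin and lipid-modification genes Kctd20, Lztr1, Zdhhc6 and Abhd17c and the repressor Etv6. The membrane and adhesion genes were Rflnb, Jagn1, Grina, Vps36 and Jup. Jup, which links cadherins to filaments, went from 895.9 to 443.6, 2.02-fold lower. Etv6 went from 642.6 to 300.7, 2.14-fold lower, and was under 500 on both tri-CH1 arrays.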
